A study of Mus musculus with 6 samples.

Results

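The enzymes described here supply NADPH or move carbon through the pathways that do so. They are 10 listed genes of the pentose phosphate pathway (Pgd, Pgls, Tkt, Taldo1, Rpia and Rpe), the NADP-dependent isocitrate dehydrogenases (Idh1 and Idh2) and the malic enzymes (Me1 and Me2), out of 19938 genes with a probe set that names only that gene. Each gene was read from the brightest such probe set, by the mean of all arrays, and all 10 were measured. They were compared between C2C12 cells, a mouse myoblast line, that carried a lentiviral shRNA specific for PARP2 (shPARP2) and C2C12 cells that carried a scrambled shRNA (scPARP2). Each line was kept under puromycin selection, and 3 samples of each line were hybridized, 1 to an array. Each condition is 1 transduced line, so the silencing of PARP2 cannot be told apart from any other difference between the lines.

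NADPH is the electron donor that reduces oxidized glutathione and thioredoxin and that drives the synthesis of fatty acids and sterols. In the cytosol it is made by the oxidative branch of the pentose phosphate pathway, by Idh1 and by Me1. The name "NADPH-producing enzymes of the cytosol" covers these genes only in part: Pgd, Idh1 and Me1 make NADPH in the cytosol, while Pgls, Rpia, Rpe, Tkt and Taldo1 carry the other steps of the pentose phosphate pathway, and Idh2 and Me2 are mitochondrial enzymes, of which Me2 uses mainly NAD.

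The arrays of scPARP2 cells spread less than those of shPARP2 cells: the median over probe sets of the SD of 3 arrays was 0.0753 in scPARP2 and 0.142 in shPARP2 cells on the log2 scale. The probe set of Parp2 (10414497) read 8.94, 9.13 and 9.05 on the scPARP2 arrays and 7.86, 8.14 and 7.91 on the shPARP2 arrays, so that 47.6% of the signal was left, a log2 change of -1.07 (SE, the standard error of the fit, 0.10, limma adjusted p = 0.00103). Of the myoblast markers, Myod1 and Myf5 were above the median signal of all probe sets in both lines, and 4 of 6 myoblast markers and all 6 markers of differentiating muscle were higher in shPARP2 cells. By the same limma test, at an adjusted p under 0.05, 12.4% of all 19938 genes were higher. The mean log2 level of the differentiation markers was 9.34 to 9.44 on scPARP2 and 10.28 to 10.64 on shPARP2 arrays. Ckm of the differentiation markers did not pass without any one of the 6 arrays (adjusted p from 0.0518 to 0.182), and Des of the myoblast markers did not pass without any one of them but shPARP2 replicate 3 (adjusted p from 0.0743 to 0.148). None of the 5 adipocyte markers and none of the 5 epithelial and endothelial markers passed the limma test, and none of either list had an unadjusted p under 0.05. Of 5 leukocyte markers 2 had an unadjusted p under 0.05: Cd68 fell (log2 change -0.72, limma adjusted p = 0.00119), and Lyz2 read higher without passing (0.67, limma adjusted p = 0.0565). The mean log2 level of the 5 was 6.20 to 6.36 on scPARP2 and 6.21 to 6.38 on shPARP2 arrays. Whether the changes of the enzymes go with the higher differentiation markers was not tested. These markers are transcripts only, and Myf5, a myoblast marker, was also higher (log2 change 1.13, limma adjusted p = 0.00156). In these bulk samples fewer cells of a type and less RNA per cell cannot be told apart. No source used here says that the 3 samples of a line were grown as separate cultures, and the p-values then cover only how far these samples spread, which may be technical.

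The promoters of the 4 enzymes that passed the test are shown to set the sequence at the start of genes that moved in opposite directions side by side. Each run covers 250 bases before and 25 bases after the first listed RefSeq start in GRCm38.p6, 5′ to 3′ on the strand of the gene. Capitals mark the core of the antioxidant response element, at which NRF2 and a small MAF protein bind together (TGACNNNGC), and the GC box bound by SP1 (GGGCGG), each on either strand.
Rpia, chr6:70792151-70792425, minus strand: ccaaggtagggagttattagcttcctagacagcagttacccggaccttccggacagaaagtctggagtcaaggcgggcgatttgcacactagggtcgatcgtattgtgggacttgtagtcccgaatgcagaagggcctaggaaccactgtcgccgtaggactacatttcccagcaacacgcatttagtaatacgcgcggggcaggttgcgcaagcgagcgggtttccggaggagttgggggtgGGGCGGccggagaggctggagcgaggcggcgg
Tkt, chr14:30548881-30549155, plus strand: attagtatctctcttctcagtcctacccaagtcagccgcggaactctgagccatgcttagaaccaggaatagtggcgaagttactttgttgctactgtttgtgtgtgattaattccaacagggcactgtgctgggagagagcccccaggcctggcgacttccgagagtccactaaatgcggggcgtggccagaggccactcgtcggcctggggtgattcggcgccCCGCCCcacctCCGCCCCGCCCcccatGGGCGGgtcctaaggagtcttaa
Me1, chr9:86695890-86696164, minus strand: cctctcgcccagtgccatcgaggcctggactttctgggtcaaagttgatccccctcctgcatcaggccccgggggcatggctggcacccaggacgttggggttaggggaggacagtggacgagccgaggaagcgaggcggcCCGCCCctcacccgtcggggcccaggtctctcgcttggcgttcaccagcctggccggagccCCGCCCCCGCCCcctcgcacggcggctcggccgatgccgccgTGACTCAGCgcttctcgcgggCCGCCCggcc
Idh2, chr7:80115326-80115600, minus strand: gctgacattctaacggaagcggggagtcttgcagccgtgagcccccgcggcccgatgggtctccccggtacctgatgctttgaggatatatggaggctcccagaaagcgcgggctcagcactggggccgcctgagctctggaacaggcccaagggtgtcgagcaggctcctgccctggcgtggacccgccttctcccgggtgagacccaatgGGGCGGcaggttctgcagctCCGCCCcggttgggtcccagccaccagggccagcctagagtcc

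Of these 4 promoters, that of Me1 held the antioxidant response element core. The match, TGACTCAGC, ran from 6 bases before to 3 bases into the transcript and also contains TGACTCA, the sequence bound by AP-1. Across the 12 promoters listed for 9 of the enzymes, each searched over 300 bases, 2 held this core, the other being the second listed promoter of Pgd, against 12.4% of all 32851 promoters. The GC box was in 10 of the 12, against 35.7% of all promoters, and at least 1 promoter of each of the 9 enzymes held it. The CCAAT box (CCAAT) was in 6 of the 12 and in 37.4% of all promoters. A sterol response element (TCACNCCAC) was in 0 of the 12 and in 1.24% of all promoters. The GC boxes of Tkt overlapped each other by 1 base at 1 place, and in Me1 a pair of them adjoined. These matches are descriptions of letters in a window and not of binding. The 4 printed promoters were 58.9% (Tkt) to 73.1% (Me1) G or C. The shares of all promoters were not matched for this content or for the signal of the gene.

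Among the 10 enzymes, Rpia and Me1 rose and Idh2 and Tkt fell in shPARP2 cells at an adjusted p under 0.05 in limma, and 6 did not pass the test. Thus 4 of 10 passed, where 24% of all 19938 genes and 18.5% of all 35556 probe sets passed, with 2 higher (12.4% of all genes) and 2 lower (11.6% of all genes). The log2 change, here always shPARP2 minus scPARP2, was above 0 for 5 enzymes and below 0 for the other 5. Its median was -0.02 over the 10 enzymes and -0.02 over all genes. The median size of the change without its sign was 0.29 for the enzymes and 0.14 for all genes. The arrays of the 2 lines did not overlap for 9 of the 10 enzymes, 4 higher and 5 lower, and did not overlap for 42.1% of all genes. All 10 enzymes read above the median signal of all probe sets. The shares and medians over all genes also take in genes of low signal. The enzymes were not compared with genes of like signal.

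**Figure D1:**
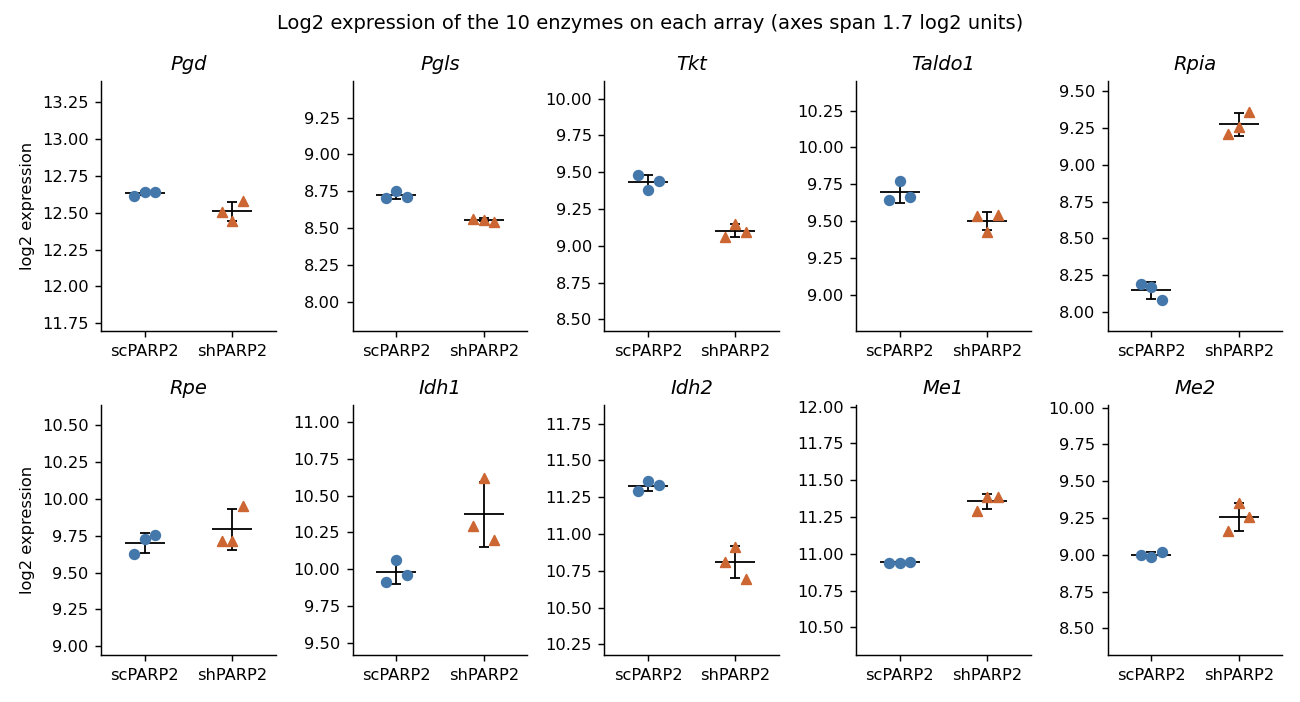
Log2 expression (vertical axis) of each enzyme on the 3 scPARP2 arrays (circles) and the 3 shPARP2 arrays (triangles), with the mean and SD of 3 arrays as bars. Every panel spans the same 1.7 log2 units, so distances compare between panels: Rpia moved from a mean of 8.15 to 9.28, while the arrays of Rpe overlap.

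Neither Pgd nor Pgls, of the oxidative branch of the pentose phosphate pathway, passed the test. G6pdx, the first enzyme of this branch, had no probe set that names only that gene and was not read. The branch was therefore covered only in part. Pgd, the 6-phosphogluconate dehydrogenase that makes NADPH and ribulose 5-phosphate (probe set 10518570), read 12.62, 12.64 and 12.64 on the scPARP2 arrays and 12.50, 12.45 and 12.58 on the shPARP2 arrays. All 3 shPARP2 arrays lay below all 3 scPARP2 arrays, by little. Its log2 change was -0.12 (SE 0.06 and 95% confidence interval -0.28 to 0.03, with a limma adjusted p of 0.274). The intervals, unlike the adjusted p, are those of single probe sets. Pgls, the lactonase that acts on the step before Pgd (probe set 10572663), read 8.71, 8.75 and 8.71 in scPARP2 and 8.56, 8.56 and 8.54 in shPARP2 cells. The shPARP2 arrays were nearly equal, with an SD of 0.0099, and stood below the scPARP2 arrays. The log2 change of Pgls was -0.17 (SE 0.06, limma adjusted p = 0.108), with a 95% confidence interval of -0.31 to -0.03.

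Rpia and Rpe act on the same product of Pgd, and of them Rpia rose and Rpe did not pass the test. Rpia encodes ribose 5-phosphate isomerase, which turns ribulose 5-phosphate into the ribose 5-phosphate of nucleotides. Its probe set (10545255) read 8.19, 8.17 and 8.08 on the scPARP2 arrays and 9.21, 9.26 and 9.36 on the shPARP2 arrays. The lowest shPARP2 array stood far above the highest scPARP2 array. The log2 change was 1.13 (SE 0.07 and 95% confidence interval 0.96 to 1.30, with a limma adjusted p of 0.000296), which is 2.19-fold, and 288 of the 19938 genes, Rpia included, rose as much or more. Rpe encodes ribulose 5-phosphate epimerase, which feeds the other arm of the pathway (probe set 10347106). It read 9.63, 9.73 and 9.76 in scPARP2 and 9.72, 9.72 and 9.96 in shPARP2 cells, so that only shPARP2 replicate 3 lay above the scPARP2 arrays. Its log2 change was 0.09 (SE 0.09 and 95% confidence interval -0.13 to 0.31, with a limma adjusted p of 0.586). On the log2 scale the difference Rpia minus Rpe changed by 1.04, from -1.56 ± 0.12 to -0.52 ± 0.07 (SD, n = 3 arrays each); this pair was chosen after its values were seen and was not tested.

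The enzymes that rearrange sugar phosphates in the non-oxidative branch both read lower, and Tkt passed the test. Tkt, the transketolase that moves carbon units between sugars with the help of thiamine diphosphate (probe set 10413542), read 9.48, 9.38 and 9.44 on the scPARP2 arrays and 9.06, 9.15 and 9.10 on the shPARP2 arrays. The highest shPARP2 array stood below the lowest scPARP2 array. The log2 change was -0.33 (SE 0.06 and 95% confidence interval -0.49 to -0.17, with a limma adjusted p of 0.0159), or 79.6% of the scPARP2 signal. The call of Tkt ended without any one of the scPARP2 replicates 1, 2 and 3 (adjusted p = 0.0811, 0.0530 and 0.0814) and without shPARP2 replicate 1 (adjusted p = 0.0511), and the number of lower enzymes was then 1. Taldo1, the transaldolase of the same branch (probe set 10558903), read 9.64, 9.78 and 9.66 in scPARP2 and 9.53, 9.43 and 9.54 in shPARP2 cells. Its arrays did not overlap, and its log2 change was -0.19 (SE 0.07, limma adjusted p = 0.125).

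Of the isocitrate dehydrogenases, the mitochondrial Idh2 fell and the cytosolic Idh1 read higher without passing the test. Both turn isocitrate into 2-oxoglutarate with NADP, Idh1 in the cytosol and peroxisomes and Idh2 in mitochondria. Idh2 (probe set 10564857) read 11.29, 11.36 and 11.33 on the scPARP2 arrays and 10.81, 10.91 and 10.70 on the shPARP2 arrays. The arrays did not overlap, and its log2 change was -0.52 (SE 0.08 and 95% confidence interval -0.71 to -0.34, with a limma adjusted p of 0.00546), or 69.7% of the scPARP2 signal. Idh1 (probe set 10355214) read 9.91, 10.07 and 9.96 in scPARP2 and 10.30, 10.62 and 10.20 in shPARP2 cells. All shPARP2 arrays lay above the scPARP2 arrays, but shPARP2 replicate 2 stood well above the other two, and the SD of 0.22 was the highest of any enzyme. The log2 change of Idh1 was 0.39 (SE 0.12, 95% confidence interval 0.10 to 0.68) and missed the threshold (adjusted p = 0.0738). Without shPARP2 replicate 3 Idh1 passed, at an adjusted p of 0.0488.

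Within each array the difference Idh1 minus Idh2 was -1.38, -1.29 and -1.37 in scPARP2 and -0.51, -0.29 and -0.50 in shPARP2 cells, on the log2 scale. The probe sets bind their targets with different strength, so the sign of these differences says nothing about which transcript was more abundant, while their change between the lines can be read. The difference changed by 0.91 (SE 0.08, 95% confidence interval 0.71 to 1.11). The two-sided exact permutation test gave p = 0.10, which is the smallest p that 3 arrays against 3 allow.

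**Figure D2:**
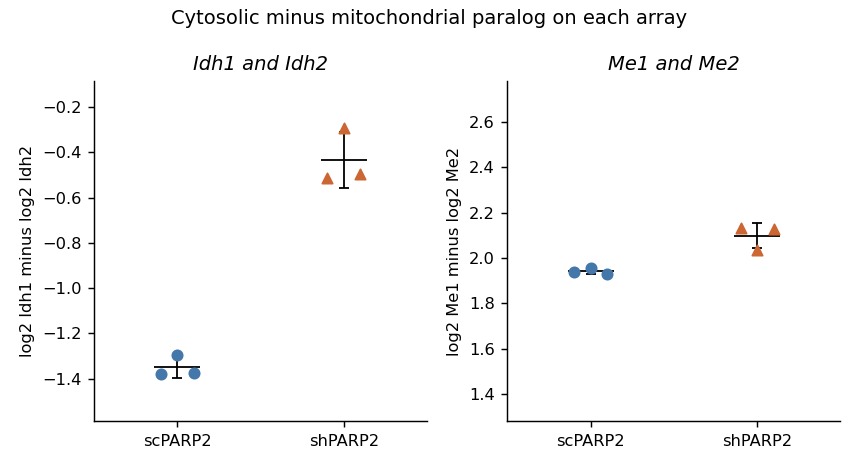
Difference between the log2 signals of the cytosolic and the mitochondrial paralog (vertical axis) on each array, for Idh1 minus Idh2 (left) and Me1 minus Me2 (right). Circles stand for scPARP2 and triangles for shPARP2 arrays, with the mean and SD of 3 as bars; both panels span 1.5 log2 units, and the change is 0.91 on the left and 0.16 on the right.

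Both malic enzymes read higher in shPARP2 cells, and Me1 passed the test. Me1, which turns malate into pyruvate in the cytosol and makes NADPH, read 10.94, 10.94 and 10.95 on the scPARP2 arrays and 11.29, 11.39 and 11.38 on the shPARP2 arrays (probe set 10595480). The scPARP2 arrays were nearly equal, with an SD of 0.0049, and stood well below every shPARP2 array. Its log2 change was 0.41 (SE 0.06 and 95% confidence interval 0.26 to 0.56, with a limma adjusted p of 0.00583), which is 1.33-fold. Me1 was the only one of the 10 enzymes with another probe set of its own. That probe set (10405753) read 10.87, 10.95 and 10.91 in scPARP2 and 11.31, 11.40 and 11.41 in shPARP2 cells, a log2 change of 0.46 (SE 0.07, limma adjusted p = 0.00458).

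Me2, the mitochondrial malic enzyme that works mainly with NAD (probe set 10459730), read 9.00, 8.99 and 9.02 in scPARP2 and 9.16, 9.36 and 9.26 in shPARP2 cells. Its arrays did not overlap, and its log2 change of 0.26 (SE 0.07, 95% confidence interval 0.08 to 0.43) missed the threshold (adjusted p = 0.0561). The difference Me1 minus Me2 was 1.94, 1.95 and 1.93 in scPARP2 and 2.13, 2.03 and 2.13 in shPARP2 cells on the log2 scale. It changed by 0.16 (SE 0.06, 95% confidence interval 0.0058 to 0.31; two-sided exact permutation p = 0.10, the smallest possible). This shift and that of Idh1 minus Idh2 were not tested against each other.

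**Figure D3:**
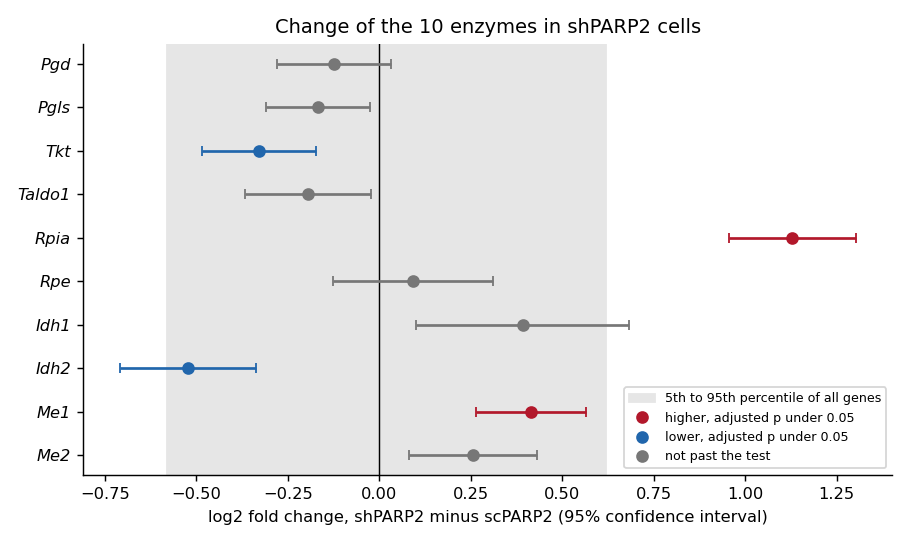
Log2 fold change between shPARP2 and scPARP2 cells (horizontal axis) of the 10 enzymes, with 95% confidence intervals from limma. Red and blue points passed an adjusted p of 0.05 and the grey band holds the middle of all 19938 genes, from the 5th percentile (-0.58) to the 95th (0.62); only Rpia lies outside it.

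The genes whose 6 array values lay nearest to those of Rpia, each taken as the difference from its scPARP2 mean, were Riok3, an atypical protein kinase, Tfcp2l1, a transcription factor, and 4930503L19Rik. Their Euclidean distances from Rpia over the 6 arrays were 0.05, 0.09 and 0.09 on the log2 scale, and their log2 changes were 1.13, 1.17 and 1.11. Changes near that of Rpia follow from picking genes by this distance, and shared regulation was not tested.

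Genes listed as other sources of NADPH, not all of which make it themselves, also moved in both directions. Of 13 listed genes 12 were measured, of which 4 rose, 3 fell and 5 did not pass the limma test, with a median log2 change of 0.16 against -0.02 over all genes. The share that passed was 58.3%, where 24% of all genes passed, 12.4% higher and 11.6% lower. Here and for the lists below, the shares over all genes also take in genes of low signal. Among the genes that passed, Mthfd1l and Mthfd2l rose most. They belong to the mitochondrial folate pathway, which makes NADPH or NADH while it oxidizes one-carbon units. Of the other listed folate genes, named after their values were seen, Mthfd2 passed. Aldh1l1 (log2 change 0.69, limma adjusted p = 0.0543), Mthfd1 (0.26, limma adjusted p = 0.0805) and Aldh1l2 (0.04, limma adjusted p = 0.774) did not. Mthfd1l, the mitochondrial formate-tetrahydrofolate ligase, went from 10.05 ± 0.05 to 10.82 ± 0.12 (SD, n = 3 arrays each), a log2 change of 0.77 (SE 0.08, limma adjusted p = 0.00178). Mthfd2l, a mitochondrial methylenetetrahydrofolate dehydrogenase, had one of 0.72 (SE 0.09, limma adjusted p = 0.00297). The largest falls were in Me3, the mitochondrial NADP-dependent malic enzyme, and in H6pd, which carries out the oxidative steps of the pentose phosphate pathway inside the endoplasmic reticulum. Me3 went from 8.05 ± 0.08 to 7.30 ± 0.01 (SD, n = 3 arrays each), a log2 change of -0.75 (SE 0.07, limma adjusted p = 0.00102), and H6pd had one of -0.56 (SE 0.07, limma adjusted p = 0.00236). Among the 3 malic enzymes, therefore, Me1 rose, Me3 fell and Me2 did not pass. Of the NAD kinases, named after their values were seen, Nadk rose (log2 change 0.39, limma adjusted p = 0.00629) and Nadk2 fell (-0.32). The calls of Mthfd2 (log2 change 0.34) and Nadk2 ended when shPARP2 replicate 1 or any single scPARP2 array was left out (adjusted p from 0.0532 to 0.0864 and from 0.0517 to 0.114).

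Of the 17 genes listed around the sugar phosphates of the pentose phosphate pathway, 16 were measured, of which 4 rose, 2 fell and 10 did not pass, with a median log2 change of 0.02. The share that passed was 37.5%, against 24% of all genes. The phosphoribosyl pyrophosphate synthetases, which use the product of Rpia, moved in opposite directions. Prps1 went from 10.21 ± 0.10 to 10.86 ± 0.07 (SD, n = 3 arrays each), a log2 change of 0.65 (SE 0.08, limma adjusted p = 0.00275), while that of Prps2 was -0.59 (SE 0.11, limma adjusted p = 0.0120). Pgm1, a phosphoglucomutase that links glycogen to glucose 6-phosphate, had a log2 change of -0.90 (SE 0.09, limma adjusted p = 0.00122). Pfkp, a phosphofructokinase of glycolysis, had one of 0.48 (SE 0.08, limma adjusted p = 0.00766). Without scPARP2 replicate 1, 2 or 3 the higher genes numbered 2, as Hk2 and Pfkl did not pass (adjusted p from 0.0637 to 0.107), and without scPARP2 replicate 2 the lower genes numbered 1, as Prps2 did not pass (adjusted p = 0.0549).

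Of the 15 genes listed around citrate, isocitrate and malate, 14 were measured, of which 4 rose, 2 fell and 8 did not pass, with a median log2 change of 0.08. The share that passed was 42.9%, against 24% of all genes. Acly, which splits cytosolic citrate for lipid synthesis, read 10.24 ± 0.0022 in scPARP2 and 11.22 ± 0.23 in shPARP2 cells (SD, n = 3 arrays each), a log2 change of 0.97 (SE 0.12, limma adjusted p = 0.00266). Aco1, the cytosolic aconitase that makes the substrate of Idh1 and also binds iron-responsive elements, had one of 0.50 (SE 0.06, limma adjusted p = 0.00256). Pcx, the pyruvate carboxylase of mitochondria, fell from 11.47 ± 0.0094 to 10.08 ± 0.08 (SD, n = 3 arrays each), a log2 change of -1.40 (SE 0.07, limma adjusted p = 0.000125). Slc25a10, the dicarboxylate carrier that exchanges malate across the inner mitochondrial membrane, had one of -0.73 (SE 0.13, limma adjusted p = 0.0118), and its call ended without scPARP2 replicate 2 (adjusted p = 0.0518), when 1 gene of the list was lower. Idh3a (log2 change 0.35), a subunit of the NAD-dependent isocitrate dehydrogenase, did not pass without any one of the scPARP2 replicates (adjusted p from 0.0536 to 0.0812).

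Of the 14 genes listed as users of NADPH, 10 were measured, of which 4 rose, 3 fell and 3 did not pass, with a median log2 change of 0.09. The share that passed was 70%, against 24% of all genes. The genes that rose were those of lipid synthesis and a source of hydrogen peroxide. Dhcr7, the last reductase of cholesterol synthesis, had a log2 change of 1.23 (SE 0.17, limma adjusted p = 0.00454). Nox4, an NADPH oxidase that makes hydrogen peroxide, had one of 1.21 (SE 0.09, limma adjusted p = 0.000409). The genes that fell were reductases of detoxification and of the glutathione system. Nqo1, the quinone reductase, read 10.98 ± 0.04 in scPARP2 and 7.30 ± 0.17 in shPARP2 cells (SD, n = 3 arrays each), a log2 change of -3.68 (SE 0.10, limma adjusted p = 2.44e-05). Blvrb, a biliverdin reductase, had a log2 change of -1.89 (SE 0.06, limma adjusted p = 2.54e-05). The remaining calls, named after their values were seen, were Fasn (0.70) and Sqle (0.81) among the higher and Gsr, which reduces oxidized glutathione (-0.48), among the lower. These counts stood without any 1 of the 6 arrays.

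Of the 10 genes listed as factors known to act on these enzymes or on their regulators, 9 were measured, of which 3 rose, 2 fell and 4 did not pass, with a median log2 change of 0.21. The share that passed was 55.6%, against 24% of all genes. Maff and Mafk, small MAF proteins that pair with NRF2 or among themselves at the antioxidant response element, had log2 changes of 1.48 (SE 0.07, limma adjusted p = 8.70e-05) and 1.22 (SE 0.12, limma adjusted p = 0.00130). Srebf1, which drives lipid synthesis genes, had one of 0.38 (SE 0.06, limma adjusted p = 0.00803) and did not pass without scPARP2 replicate 3 (adjusted p = 0.0537). Keap1, which holds NRF2 for degradation, had one of -0.36 (SE 0.07, limma adjusted p = 0.0154) and did not pass without scPARP2 replicate 1, 2 or 3 (adjusted p from 0.0605 to 0.0757), when 0 genes of the list were lower. The other lower gene, Mafg (log2 change -0.26), passed only with all arrays or without shPARP2 replicate 3 among the fits that left out an array (adjusted p from 0.0790 to 0.182 in the others), so that 1 gene was lower without shPARP2 replicate 1 or 2. Nfe2l2, which encodes NRF2, had a log2 change of -0.09 (SE 0.07, limma adjusted p = 0.470). A paper that reanalyzed these arrays also measured scPARP2 and shPARP2 C2C12 cells by RT-qPCR. It reported no difference in the mRNA of Keap1, Mafg, Mafk and Nfe2l2, and Maff was not detected. Keap1, Mafg and Mafk passed the limma test on the arrays, while the RT-qPCR gave no significant difference. The text of the paper gives no size of change for these genes, so whether the sizes differ cannot be told. Maff, which rose on the arrays, had no RT-qPCR value to compare. The reasons were not tested. The gene lists were described by their counts and medians, and no list was tested as a set.

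**Figure D4:**
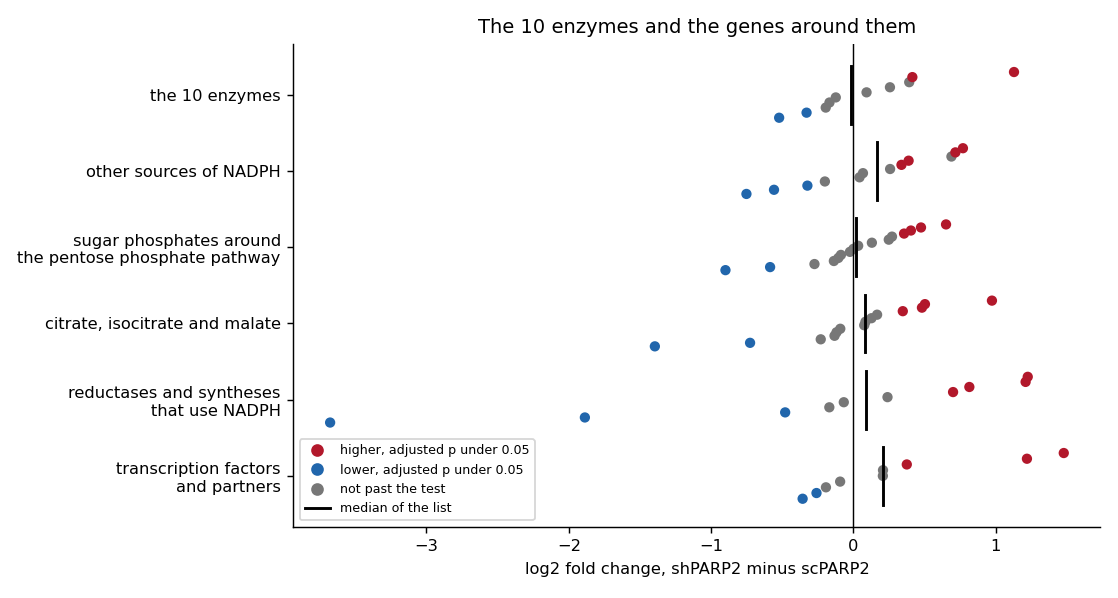
Log2 fold change between shPARP2 and scPARP2 cells (horizontal axis) of the 10 enzymes and of the measured genes of the 5 lists around them, one point per gene. Red and blue points passed an adjusted p of 0.05, grey points did not, and black bars are list medians, which run from -0.02 for the enzymes to 0.21 for the transcription factors and partners.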

How the data were processed

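Total RNA of C2C12 cells was hybridized to Affymetrix mouse gene arrays, 3 samples per line. For 35556 probe sets, log2 values that the authors had computed with RMA, as the submitters' processing notes name it, were deposited; its version is not given in the sources used here. Samples were grouped by their titles. Names came from the platform annotation: 21789 probe sets name 1 gene, 1621 several, and 12146 are not named here. The 10 symbols matched current RefSeq symbols. All probe sets were fitted together by lmFit and eBayes of limma 3.58.1 (R 4.3.3) with no covariate, and p-values were adjusted by Benjamini-Hochberg over every probe set, at a threshold of 0.05. Standard errors are moderated. The calculation was tested on simulated data. Arrays give no read depth, and the number of arrays limits the precision. The labels give no batch.

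The members and lists were chosen with earlier results of these data known. Named are the enzymes, Parp2, in each list at most 4 of the genes that passed, taken by size of change, and the 3 genes nearest to the most changed enzyme; a few others are marked. Alternatives were quantile normalization, centring, leaving out probe sets under the 40th percentile of mean signal, probe sets of single genes alone, weights per array, a robust variance with a trend, a block for the replicate number, thresholds of 0.01 for the adjusted p or of 1.5-fold for the change, the other probe set of Me1 or the mean of both, and leaving out each array; those for lists and paralog pairs were added after the data were examined. Promoter sequences are from RefSeq (GRCm38.p6), found for 9 of the 10 enzymes. Figures were drawn with matplotlib 3.10.9.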

Additional observations from a re-analysis of the deposited data

How the results depend on the processing

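Of 141 log2 fold changes of single enzymes under 15 alternatives, none reversed, 124 kept their side of the threshold, 5 lost it (all of Tkt) and 12 gained it (6 of Idh1, 5 of Me2 and 1 of Pgls). The higher enzymes, 2 as reported, numbered 4 when dim probe sets were left out, with single-gene probe sets only, with a trended robust variance and with probe sets averaged per gene, 1 at a change of at least 1.5-fold, and 2 to 3 without single arrays. The lower enzymes, 2 as reported, numbered 1 with the replicate block and at an adjusted p under 0.01, 0 at a change of at least 1.5-fold in limma, and 1 to 2 without single arrays. Over all probe sets, 3345 were higher and 3249 lower. At an adjusted p under 0.01 these were 1736 and 1589, at a change of at least 1.5-fold 1458 and 1327, without single arrays 1842 to 3449 and 1761 to 3782, and with array weights 4941 were lower. Among the sugar phosphate genes 2 were higher with the replicate block, and without single arrays 2 to 4 were higher and 1 to 3 lower. Among the citrate, isocitrate and malate genes 1 to 3 were lower without single arrays. Among the transcription factors and partners 5 were higher with a trended robust variance, 1 was lower with centring and with the replicate block, and 0 to 3 were lower without single arrays. The causes were not tested. The replicate numbers of the lines were not shown to pair the samples (correlation of same-numbered deviations -0.05, 0.09 and 0.01); with the replicate block the adjusted p of Tkt was 0.0671, and no other enzyme changed its call. The changes of Idh1 minus Idh2 (0.84 to 0.95) and of Me1 minus Me2 (0.14 to 0.19) kept their direction without single arrays. With 3 arrays per line small changes are poorly bounded: the 95% confidence interval of Pgd ran from -0.28 to 0.03.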

Other observations

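On all 6 markers of differentiating muscle, shPARP2 replicate 2 read highest, replicate 1 in between and replicate 3 lowest, an order that 20.7% of all 19938 genes had. The same order held for 5 of 6 myoblast markers, for 5 of 10 users of NADPH, for 7 of 16 sugar phosphate genes and for 5 of 14 citrate, isocitrate and malate genes. It held for 2 of 12 other sources of NADPH, for 1 of 5 leukocyte markers, and for 0 of 9 transcription factors and partners, 0 of 5 adipocyte markers and 0 of 5 epithelial and endothelial markers. Of the 10 enzymes it held for 2, Idh1 and Idh2, which is near the share of all genes. Acly, for example, read 11.26, 11.41 and 10.97 on shPARP2 replicates 1, 2 and 3, and Mymk, a protein of myoblast fusion, read 12.28, 12.44 and 12.05. This order was noticed in the values and then counted, and it was not tested. The medians of all probe sets ran in the reverse order, 7.13, 7.04 and 7.18 on shPARP2 replicates 1, 2 and 3. On scPARP2 replicates 1, 2 and 3 they were 7.14, 7.11 and 7.15. Whether the order of the markers goes with these medians was not tested.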
